A study of Trichechus manatus latirostris with 11 samples.

Results

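The genes described here encode the subunits and helper proteins of the proteasome (symbols PSMA to PSMG) and the ubiquitin-conjugating enzymes (UBE2), measured by RNA sequencing in buffy coats (leukocytes and platelets spun out of blood) of Florida manatees. Members were all rows of the authors' deposited table whose TriManLat1.0 RefSeq symbol is PSM followed by a letter from A to G and a digit, or UBE2 followed by a letter. This gave 69 of 15298 rows, 43 with a PSM symbol and 26 with a UBE2 symbol, which carried 66 different symbols. RefSeq lists 81 symbols of this form, and the other 15, among them PSMA1, PSMC1, PSMB11 and UBE2L3, were not analysed here.

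Animals of the red tide group were 4 adults brought to the Lowry Park Zoo with red tide illness. By the study, 2 of them were sampled on arrival and 2 after a week of treatment, and each group held 1 female among males. Animals of the control group were 7 adults, of which 4 were sampled at Crystal River, 2 in the Indian River Lagoon and 1, recovering from pneumonia, at the same zoo. Libraries were made from total RNA depleted of globin and ribosomal transcripts. The labels give RNAlater as storage for all animals, and the study's methods also describe freezing for the red tide group. Illness, place and date of sampling and any difference in storage went with the groups, so their parts in a difference cannot be told apart. The table gives the mean normalized count of each group, a read count divided by the size factor of its library, and no value of a single animal. The first mean has the weight of 4 libraries and the other the weight of 7, the sizes of the red tide and of the control group, and the title of the table names the red tide group first. The columns themselves name no group, and the deposited fold change divides the second mean by the first. The study reads that fold change as red tide over control, which is the reverse of the assignment by weights and title. The sources used here do not settle which is right, so both means are called by their number of libraries, and no direction below is given as one of red tide.

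Cells mark proteins for removal by attaching ubiquitin, a small protein, through a relay of E1 activating, E2 conjugating and E3 ligating enzymes. The marked proteins are unfolded by the regulatory particle (19S) of the proteasome and cut into peptides inside its core particle (20S), a stack of outer alpha rings and inner beta rings. The catalytic beta subunits can be replaced, for example under interferon, by PSMB8, PSMB9 and PSMB10, which form the immunoproteasome and cut peptides for display on class I molecules.

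Size factors were 1.56, 1.03, 0.62 and 0.372 in the 4-library group and 0.702 to 1.73 in the 7-library group. The largest was 4.66 times the smallest, a wider range than that of the reads per sample in the study. Over the rows recovered in all 11 libraries, the library of size factor 0.372 held 17149 reads and that of 1.73 held 15701. Size factors are therefore not read as depth. Whole reads of each library were recovered from low means, where a single combination of reads gave the deposited value. This held for 30 member rows in the 4 libraries and for 6 member rows in all 11, and values of single libraries are given in order of falling size factor. For the other 39 rows the spread between libraries is not known and no error can be given. Levels were not compared between genes, since no transcript lengths were used. Blood cell markers moved between the groups. Of the 10 neutrophil marker rows 8 were at least 1.5-fold lower in the 4-library mean and 2 were higher (summed level 2218 against 12644), whereas all 6 platelet marker rows were higher (15280 against 4429). T cell markers (4 rows, 508 against 795), B cell markers (5 rows, 826 against 876), NK and cytotoxic markers (4 rows, 106 against 226) and monocyte markers (7 rows, 2535 against 3117) summed to less in the 4-library mean. No row of these lists was at 0 in either mean, but neither was any other row of the table, so this does not bear on the cell types present. In such bulk samples, fewer cells of a type and less RNA per cell cannot be told apart, and the part of cell composition in the results that follow was not tested.

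Most proteasome and E2 genes differed little between the means. The share of rows at least 1.5-fold higher in the 4-library mean was smaller than over the table, and the share of lower rows was near that of the table. Of the 69 rows, 6 (8.7%) were at least 1.5-fold higher in the 4-library mean, against 33.8% of all rows of the table. At least 1.5-fold lower were 17 (24.6%), against 20.2% of all rows. On the log2 scale the ratio (4-library mean divided by 7-library mean) had a median of -0.12 over the members and 0.14 over the table. Weak rows weigh on these numbers, because many weak rows of the table had a higher 4-library mean. Of the members, 61 rows had an overall mean of 10 or more. Among them 6 (9.8%) were higher and 11 (18.0%) lower, where 22.8% and 21.6% of all such rows were. The medians were -0.08 for the members and -0.01 for all such rows. At a fold of 2 these 61 rows included 1 that was higher and 5 that were lower, beside 12.3% and 9.59% of all rows at that level.

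The same count was made for PSM and UBE2 rows apart. Of the 40 PSM rows with a mean of at least 10, 6 were at least 1.5-fold higher and 6 at least 1.5-fold lower, with a median log2 ratio of -0.01. Of the 21 UBE2 rows at that level 0 were higher and 5 (23.8%) were lower, with a median of -0.15. Of all rows at that level 22.8% were higher and 21.6% lower, so the share of lower UBE2 rows was near that of the table. Including the weaker rows, which rest on few reads, 10 of 26 UBE2 rows were lower, against 20.2% of all rows. Counts of the single groups below are to be read beside these shares. No test over the members was made, so these counts are a description of the group means.

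**Figure D1:**
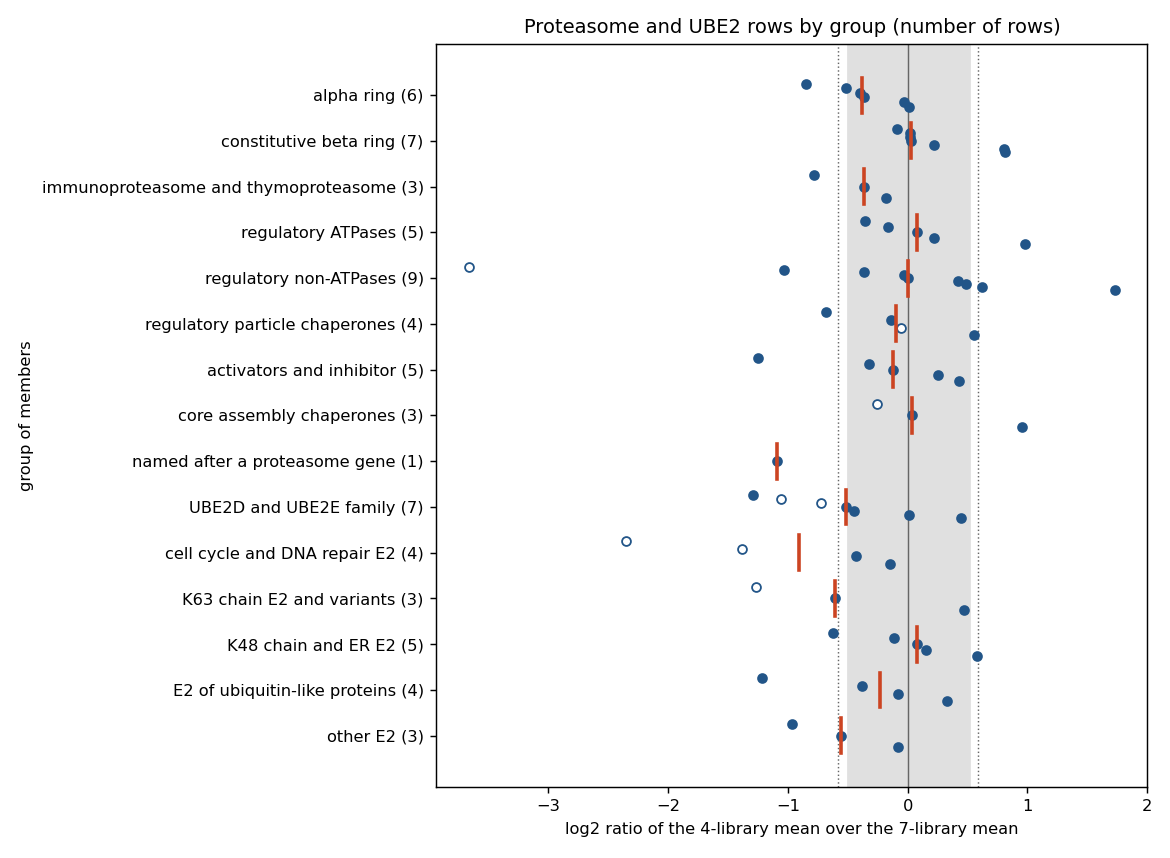
Log2 of the 4-library mean divided by the 7-library mean (x axis) for each of the 69 member rows, by group (y axis). Filled points have an overall mean of 10 or more, open points a lower mean, red bars are group medians, the grey band is the middle of all rows with a mean of at least 10 (lower to upper quartile), and dotted lines mark a fold of 1.5. The constitutive beta ring lies around 0 apart from PSMB2 and PSMB6, and the rows past the fold among the UBE2 genes all lie to the left.

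The alpha ring, which gates entry to the core, was slightly lower in the 4-library mean in 5 of 6 rows, with a median log2 ratio of -0.38. Of all 10225 rows with a mean of at least 10, 5191 were lower by any amount. PSMA6 (XM_004376511.1), the exception, had means of 455 and 451 over the 4 and the 7 libraries. PSMA4 (XM_004387461.1) had the lowest ratio, with means of 7.18 ± 6.74 (SD, n = 4) and 13, and 17, 15, 2 and 0 reads in the 4 libraries. Without the library of size factor 0.372 its log2 ratio moved from -0.85 to -0.44, which is within the fold of 1.5, whereas removal of the library of size factor 1.03 gave -1.46. PSMA3 (XM_004370899.1) had 82.7, 74.0, 80.6 and 21.5 normalized counts in the 4 libraries and a 7-library mean of 92.6. All 4 libraries lay below that mean, the last of them far below the others, and it held 8 of the 263 reads.

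The constitutive beta ring, which carries the cutting sites, split into 5 rows with small differences and 2 past the fold. Its 7 rows had a median log2 ratio of 0.03 (-0.11 when each group mean was divided by its sum over the table), and the 5 lay between -0.09 and 0.22. PSMB5, the subunit with chymotrypsin-like activity, had means of 241 over the 4 libraries and 237 over the 7. PSMB7, with trypsin-like activity, had 506 and 496. PSMB6, the caspase-like subunit, stood apart with 404 over the 4 libraries and 232 over the 7, a ratio of 1.74. PSMB2, a structural neighbour without a cutting site, showed a ratio of 1.75, from means of 198 and 113, while PSMB3 had the lowest ratio of the group at 0.94.

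All 3 immunoproteasome subunits had a lower mean over the 4 libraries, with a median log2 ratio of -0.37, but 1 of them was past the fold of 1.5. A lower mean by any amount was also seen in 5191 of all 10225 rows with a mean of at least 10. PSMB8 (XM_004390982.1), which takes the place of PSMB5, had means of 427 and 734 over the 4 and the 7 libraries, 1.72-fold lower. PSMB9 (XM_004390980.1), the counterpart of PSMB6, had 303 and 391. PSMB10 (XM_004371470.1), the counterpart of PSMB7, had 161, 117, 80.6 and 113 normalized counts in the 4 libraries. Their mean was 118 ± 33.0 (SD, n = 4), against 134 over the 7 libraries, and 1 of the 4 libraries lay above that mean, so the difference of PSMB10 was smaller than the spread of the 4.

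The ratio of an inducible subunit to the constitutive subunit it replaces does not change when all libraries of a group are scaled by the same amount, and its change between the groups does not depend on transcript length. PSMB9 over PSMB6 was 0.750 in the 4-library means and 1.69 in the 7-library means, a log2 change of -1.17. PSMB8 over PSMB5 was 1.77 and 3.10, a change of -0.80. PSMB10 over PSMB7 was 0.233 and 0.269, a change of -0.21. All 3 changes thus had the same direction, and that of PSMB9 over PSMB6 combines a lower numerator with a higher denominator. Values of single libraries were not recovered for PSMB5 to PSMB9, so no error can be given for these changes.

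The activators that dock on the core showed a related split. PSME1 and PSME2, the interferon-inducible subunits of the PA28 ring, had means of 397 and 580 over the 4 libraries and 497 and 631 over the 7. PSME3, the nuclear PA28 subunit, had 26.3, 12.7, 21.0 and 13.5 normalized counts in the 4 libraries, a mean of 18.3 ± 6.49 (SD, n = 4), and a 7-library mean of 13.6. The libraries of PSME3 lay on both sides of the 7-library mean. PSME1 over PSME3 was 21.6 in the 4-library means and 36.5 in the 7-library means, a log2 change of -0.75, and PSME2 over PSME3 changed by -0.55. Both changes depend on PSME3, which held 72 reads in the 4 libraries. Its log2 ratio moved from 0.43 to 0.21 without the library of size factor 1.56. PSME4, which encodes the large activator PA200, had means of 4203 and 3520.

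PSMF1 (XM_004370492.1), whose product PI31 binds the core and was first described as its inhibitor, had 52.0, 55.5, 46.7 and 72.6 normalized counts in the 4 libraries, a mean of 56.7 ± 11.2 (SD, n = 4). The mean over the 7 libraries was 135, which is 2.38-fold higher. All 4 libraries lay below it, and the log2 ratio of -1.25 ranged from -1.39 to -1.17 when single libraries of the 4 were omitted. The spread of the 7 libraries is not known at this level.

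The ATPases of the regulatory particle, which unfold the substrate, had a median log2 ratio of 0.08 over 5 rows (-0.06 with the group means divided by their sums). PSMC2 (XM_004390721.1) had the highest ratio, with means of 1303 over the 4 libraries and 660 over the 7, 1.97-fold higher. PSMC6 had the lowest, with 866 and 1108. PSMC4 was the only ATPase with recovered reads, and its 68.0, 17.5, 30.6 and 48.4 normalized counts in the 4 libraries spanned its 7-library mean of 46.1.

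The non-ATPase subunits, which form the base and the lid that bind ubiquitin and remove it, ranged more widely than any other group of the proteasome, from -3.66 to 1.73. PSMD12 (XM_004374203.1), a lid subunit, had the highest ratio of all members. Its normalized counts in the 4 libraries were 174, 123, 72.5 and 53.8, a mean of 106 ± 54.2 (SD, n = 4), and the mean over the 7 libraries was 31.9, a ratio of 3.32. All 4 libraries lay above the 7-library mean, and the log2 ratio was 1.38 without the highest library and 1.95 without the lowest. PSMD11 (XM_004385407.1), another lid subunit, went the other way, with 14.1, 20.4, 21.0 and 5.38 normalized counts in the 4 libraries, a mean of 15.2 ± 7.26 (SD, n = 4). Its 7-library mean was 31.2, 2.05-fold higher and above each of the 4. PSMD7 (named after its values were seen) was 1.54-fold higher in the 4-library mean, whereas PSMD4, a ubiquitin receptor also named after its values were seen, had means of 519 and 517. PSMD3, of the lid, had 10.8 to 28.2 normalized counts in the 4 libraries, on both sides of its 7-library mean of 17.3.

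PSMD1 (XM_004389504.1), a large scaffold subunit of the base, was the weakest row with a PSM symbol, and its reads were recovered in all 11 libraries. The 4 libraries held 2, 0, 0 and 0 reads, and the 7 libraries held 0, 4, 12, 0, 4, 4 and 6 reads. Both groups contained libraries at 0, so they overlapped. The mean of the 7 libraries exceeded that of the 4 by a factor of 12.7, and the 95% Poisson interval of the 2 reads in the 4 libraries alone allows 3.51 to 105 times. In the exact two-sided permutation test (330 arrangements), p was 0.0909 (0.394 with Benjamini-Hochberg adjustment over the 4711 rows with reads in all 11 libraries). The smallest p that 4 against 7 libraries allow is 0.00606. Intervals from reads cover counting error only.

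Chaperones that assemble the regulatory particle or the core are no part of the finished proteasome. PSMD10, the oncoprotein gankyrin, has a pair of records, and the stronger (XM_004379755.1) had 52.6, 36.0, 48.4 and 45.7 normalized counts in the 4 libraries, a mean of 45.7 ± 7.03 (SD, n = 4), against a 7-library mean of 73.4. All 4 libraries lay below that mean. The weaker record (XM_004379756.1) had means of 6.58 ± 3.93 (SD, n = 4) and 6.85 ± 4.29 (SD, n = 7), and the groups overlapped widely (exact permutation test, p = 0.927, or 0.127 when each library was scaled to the same total over the rows recovered in all 11). How the authors assigned reads that fit both records is not known, so values of single records are uncertain. PSMD9 had 58.4, 34.1, 33.8 and 0 normalized counts in the 4 libraries and a 7-library mean of 21.5. Its value in the last library rests on 0 reads, which allows up to 3 reads or 8.07 normalized counts. PSMD5, a chaperone of the base, had 51.6 to 96.4 in the 4 libraries, around its 7-library mean of 81.2.

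PSMG1 (XM_004387994.1), which starts assembly of the alpha ring, was the other member with each of the 4 libraries above the 7-library mean. It had 71.2, 59.4, 58.0 and 48.4 normalized counts in the 4 libraries, a mean of 59.3 ± 9.34 (SD, n = 4), and a 7-library mean of 30.6, a ratio of 1.93. Its log2 ratio ranged from 0.85 to 1.04 when single libraries of the 4 were omitted. PSMG4 and PSMG3, which also assemble the core, had 4-library means of 118 and 6.89 and 7-library means of 115 and 8.22, and PSMG3 had 1.95 to 12.2 normalized counts in the 4 libraries. PSME3IP1 (XM_004371673.1), an interaction partner of PSME3 that carries its name without being a proteasome subunit, had 59.7, 51.6, 77.4 and 108 normalized counts in the 4 libraries and a 7-library mean of 158, which is 2.13-fold higher than the 4-library mean of 74.1 ± 24.8 (SD, n = 4).

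Over the 22 member rows with recovered reads in the 4 libraries and a mean of at least 10, all 4 libraries lay below the 7-library mean in 9 rows and above it in 2. Over all 5256 rows of this kind the shares were 26.7% and 14.1%. Reads can be recovered only up to a 4-library mean of 120, which favours rows that are lower in the 4 libraries. The library of size factor 0.372, the smallest size factor, was the lowest of the 4 in 10 of the 22 member rows, and in 26.9% of all such rows. Of the 15 members past the fold of 1.5 with recovered reads, 13 stayed past it whichever of the 4 libraries was omitted, leaving aside the removal of the library of size factor 1.56 from PSMD1 and UBE2V1, after which no read is left. The exceptions were PSMA4 and the weakest record of UBE2D3.

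**Figure D2:**
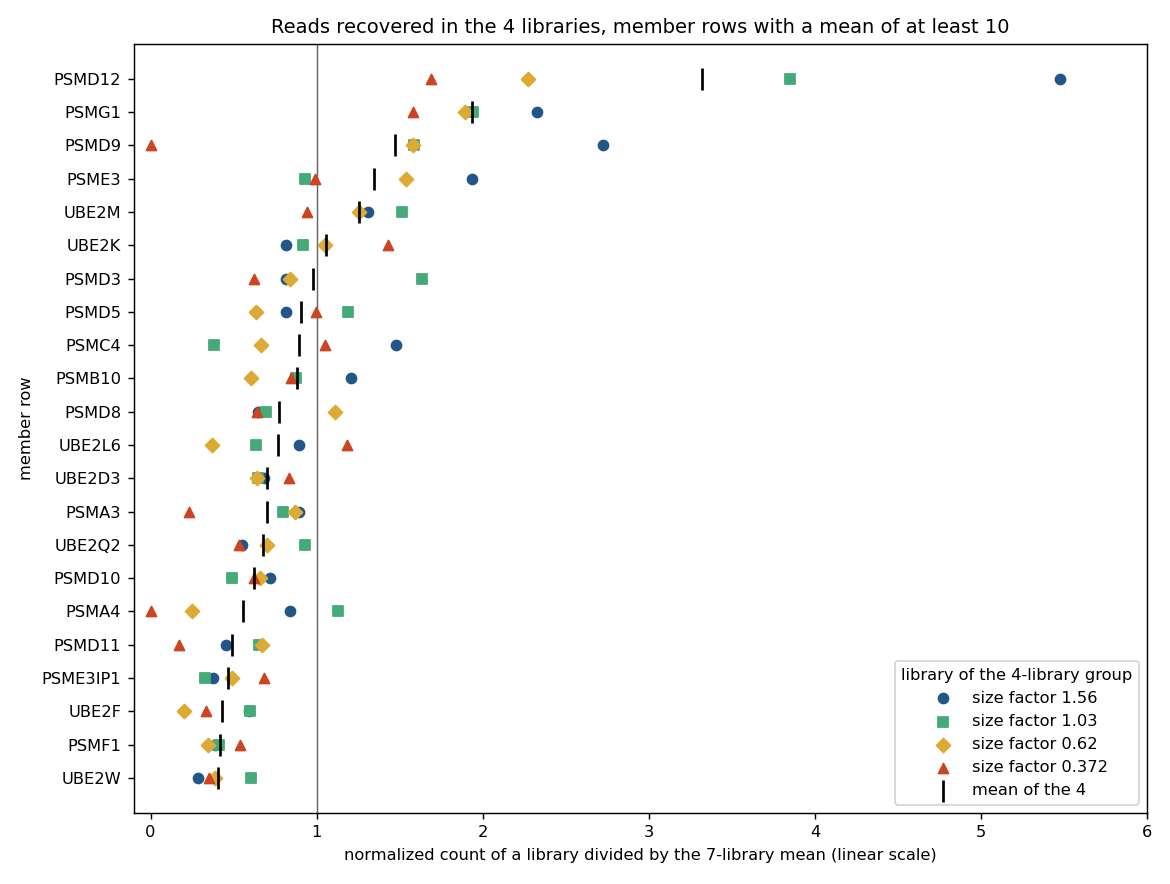
Normalized count of each of the 4 libraries divided by the 7-library mean (x axis, linear) for the 22 member rows with recovered reads and a mean of at least 10 (y axis), with the mean of the 4 as a black bar. All 4 libraries of PSMD12 and PSMG1 lie to the right of the line at 1, those of UBE2W, PSMF1, UBE2F, PSME3IP1 and PSMD11 lie to its left, and PSMD9 and PSMA4 have 0 reads in the library of size factor 0.372.

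Among the E2 enzymes, which pick the site and kind of ubiquitin chain, the UBE2D and UBE2E family works with many E3 ligases. Its rows, with UBE2W 7 in all, had a median log2 ratio of -0.51, and 3 were at least 1.5-fold lower in the 4-library mean. UBE2W (XM_004372522.1), which attaches ubiquitin to the amino terminus of proteins, had the lowest ratio of the UBE2 rows with a mean of at least 10. Its normalized counts in the 4 libraries were 46.2, 97.4, 62.9 and 56.5, a mean of 65.7 ± 22.2 (SD, n = 4), and the 7-library mean of 161 was 2.45-fold higher. All 4 libraries lay below that mean, and the log2 ratio of -1.29 ranged from -1.54 to -1.15 when single libraries were omitted. UBE2E1 had the highest ratio of the 7 rows of this family, with means of 135 and 99.5.

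UBE2D3 has 3 records, which did not differ by the same amount. The strongest (XM_004380194.1) had means of 224 and 222, the next (XM_004380193.1) had 15.4, 14.6, 14.5 and 18.8 normalized counts in the 4 libraries against a 7-library mean of 22.6. The weakest (XM_004380192.1) had 3.87 ± 2.86 (SD, n = 4) and 6.39 ± 3.90 (SD, n = 7), and its groups overlapped (exact permutation test, p = 0.291). With the library of size factor 0.372 left out, the log2 ratio of the weakest record moved from -0.72 to -0.31. UBE2D1 (XM_004369875.1), a close paralog, held 2, 0, 2 and 0 reads in the 4 libraries and 5, 6, 3, 2, 5, 1 and 0 in the 7. Its means of 1.13 ± 1.52 (SD, n = 4) and 2.35 ± 1.61 (SD, n = 7) did not separate the groups (exact permutation test, p = 0.242), and without the library of size factor 0.62 the log2 ratio moved from -1.06 to -2.46. The authors kept uniquely mapped reads, which can drop reads that fit paralogs equally, and how reads were split between records is not known, so these rows are uncertain.

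E2 enzymes of the cell cycle and of DNA repair had a lower 4-library mean in 4 of 4 rows, by any amount. Over the whole table this held for 6669 of 15298 rows. UBE2A and UBE2B, the RAD6 homologs that mark histones and PCNA, had means of 218 and 1783 over the 4 libraries and 293 and 1975 over the 7. UBE2C (XM_004370298.1), which works with the anaphase-promoting complex, held 6, 1, 0 and 0 reads in the 4 libraries and 4, 4, 1, 0, 9, 9 and 0 in the 7. The groups overlapped, with means of 1.21 ± 1.82 (SD, n = 4) and 3.15 ± 3.56 (SD, n = 7; exact permutation test, p = 0.43), and without the library of size factor 1.56 the log2 ratio moved from -1.39 to -3.28. UBE2T (XM_004375283.1), the E2 of the Fanconi anaemia pathway, held 6, 2, 1 and 0 reads in the 4 libraries, a mean of 1.85 ± 1.58 (SD, n = 4), against a 7-library mean of 9.47. Its reads in the 7 libraries fitted 6 combinations, over which the exact permutation p ran from 0.00606 to 0.194. Its log2 ratio of -2.35 became -3.00 without the library of size factor 1.56. Of the 9 proliferation marker rows, 4 were at least 1.5-fold higher in the 4-library mean and 3 lower, with summed levels of 2434 and 1144. The part of dividing cells in these E2 values was not tested.

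UBE2N, which builds K63-linked chains in NF-kB signalling, had means of 1465 over the 4 libraries and 1057 over the 7, while its inactive partner UBE2V2 had 328 and 498. The log2 ratios were 0.47 and -0.60, so the partners lay on opposite sides. UBE2V1 (XM_004370251.1), the alternative partner, held 3, 0, 0 and 0 reads in the 4 libraries and 0, 0, 1, 2, 0, 3 and 2 in the 7. The ratio of 2.41 in favour of the 7 libraries has a 95% Poisson interval, from the 3 reads alone, of 0.824 to 11.7 (exact permutation test, p = 0.455).

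Enzymes that build K48-linked chains or act at the endoplasmic reticulum (5 rows) had a median log2 ratio of 0.08 (-0.07 with the group means divided by their sums). UBE2J2, an enzyme of endoplasmic reticulum-associated degradation, had the highest ratio, just inside the fold of 1.5 (log2 ratio 0.58), from means of 157 and 105. UBE2R2, which serves cullin ligases, was just outside that fold on the other side, 1.54-fold lower with 246 and 378. UBE2K had 89.2, 100, 114 and 156 normalized counts in the 4 libraries, on both sides of its 7-library mean of 109.

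E2 enzymes also pass on proteins related to ubiquitin. UBE2F and UBE2M both conjugate NEDD8, which activates cullin ligases, and they differed in direction. UBE2F (XM_004386465.1) had 9.62, 9.74, 3.22 and 5.38 normalized counts in the 4 libraries, a mean of 6.99 ± 3.23 (SD, n = 4), all below its 7-library mean of 16.2, which is 2.32-fold higher. UBE2M had 67.4, 77.9, 64.5 and 48.4, a mean of 64.5 ± 12.2 (SD, n = 4), and 3 of the 4 libraries lay above its 7-library mean of 51.4. UBE2L6, the interferon-induced E2 of ISG15, had 93.7, 66.2, 38.7 and 124, a mean of 80.6 ± 36.5 (SD, n = 4), and the libraries lay on both sides of its 7-library mean of 105.

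UBE2O (XM_004374134.1), a large E2 that clears proteins during red cell maturation, had means of 111 over the 4 libraries and 218 over the 7, 1.96-fold lower. A pair of combinations of whole reads gave its 4-library mean. In one, the normalized counts were 84.7, 81.8, 192 and 86.1, all below the 7-library mean, and in the other they were 186, 239, 0 and 18.8, with 1 library above it. UBE2H, which is also abundant in maturing red cells, had means of 487 and 514. The erythroid marker list moved in both directions, with 2 of 8 rows at least 1.5-fold lower in the 4-library mean, 1 higher and a median log2 ratio of -0.00, and its summed levels were 2493 and 2720. UBE2Q2 had 67.4, 113, 85.4 and 64.6 normalized counts in the 4 libraries, all below its 7-library mean of 122.

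**Figure D3:**
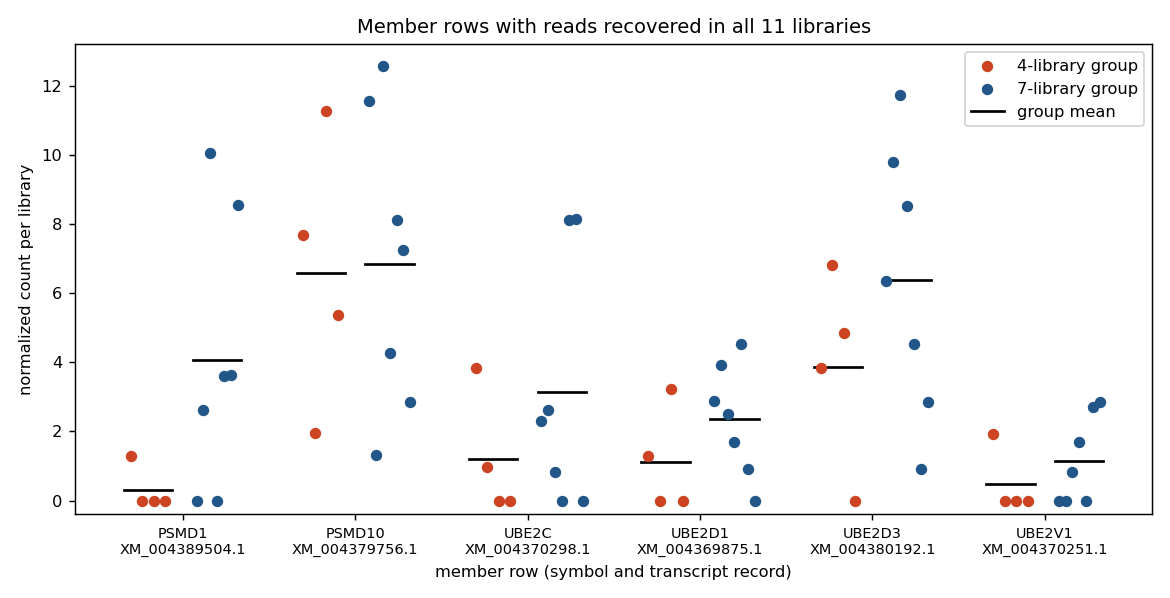
Normalized count per library (y axis) for the 6 member rows (x axis) with reads recovered in all 11 libraries, with red points for the 4-library group, blue points for the 7-library group and black bars for the group means. The groups overlap in all 6 rows, and each group of UBE2C, UBE2D1, UBE2V1 and PSMD1 includes libraries at 0.

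None of the 6 rows with reads in all 11 libraries passed a p of 0.05 in the exact permutation test before or after adjustment. With each library scaled to the same total over the 4711 rows recovered in all 11, the exact p of the 6 rows ran from 0.0727 to 0.333, with UBE2D1 lowest, and the adjusted p from 0.591 to 0.868. On that scale the log2 ratio of UBE2D1 (XM_004369875.1) was -2.60 in place of -1.06, that of UBE2D3 (XM_004380192.1) -1.78 in place of -0.72 and that of PSMD10 (XM_004379756.1) -1.39 in place of -0.06, since the 4 libraries held more reads in these weak rows. Of the 4711 rows tested in this way 717 (15.2%) had an unadjusted p under 0.05, 0 passed after Benjamini-Hochberg adjustment, and the groups did not overlap in 2.95% of rows. The smallest p of this test, 0.00606, can pass the adjustment over 4711 rows only if many rows reach it together. That 0 rows passed therefore does not show that the groups are alike. PSMD10 and UBE2D3 had the most reads of the 6, and the others rested on 11 to 34 reads in all.

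The other genes of the pathway, 92 symbols with 77 rows, were mixed as well. At least 1.5-fold higher in the 4-library mean were 11 rows (14.3%), against 33.8% of all rows of the table. Lower were 21 (27.3%), against 20.2% of all rows. The median log2 ratio was -0.21, and 0.14 over the table. Counts of the single lists below are to be read beside the same shares of all rows. RPS27A, a gene for ubiquitin fused to a ribosomal protein, had means of 4967 over the 4 libraries and 3894 over the 7. Of the 7 rows of E1 enzymes 2 were higher and 2 lower. UBA2, an E1 of SUMO, had 706 and 1064, and UBA7, the E1 of ISG15, had 91.1 and 83.6. Of 5 rows of E2 enzymes with other names 1 was lower, the autophagy E2 ATG10 with 10.5 and 25.4, and the highest was UFC1 with 407 and 347.

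Further proteasome parts and partners counted 1 higher and 3 lower rows of 11. UCHL5, a deubiquitinase of the regulatory particle, had means of 17.7 and 28.5, and AKIRIN1, a relative of the factor that imports proteasomes into the nucleus, had 644 and 374. Among 11 rows of shuttle proteins and VCP partners, 1 was higher and 1 lower. The former was DDI2, a protease that cleaves the transcription factor NFE2L1, with 278 and 137, and the latter was the shuttle UBQLN1, with 10.9 and 16.6.

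Regulators of proteasome genes showed wide differences in both directions, with 2 higher and 4 lower rows of 10. IRF1, which drives immunoproteasome genes downstream of interferon, had means of 4085 over the 4 libraries and 1722 over the 7, a log2 ratio of 1.25. The immunoproteasome subunits PSMB8, PSMB9 and PSMB10 had log2 ratios of -0.78, -0.37 and -0.18, and that of PSMB10 lay within the spread of its 4 libraries. Values of single libraries were not recovered for IRF1, PSMB8 or PSMB9, so a link between IRF1 and these subunits was not tested. NGLY1, the enzyme that processes NFE2L1, had 32.3 and 124 in its stronger record. In the class I peptide pathway 0 of 7 rows were higher and 2 were lower. ERAP2, a peptide-trimming protease, had 31.5 and 73.2, and CALR, a chaperone of class I molecules, had 5117 and 3431. The peptide transporters TAP1 and TAP2, named after their values were seen, had log2 ratios of -0.41 and -0.30, beside -0.37 for PSMB9.

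Of the 25 rows of HECT and RBR ligases, the E3 partners of the UBE2D and UBE2L enzymes, 5 were higher and 8 were lower. HERC6, an interferon-induced ligase, had means of 640 over the 4 libraries and 2011 over the 7, a log2 ratio of -1.65, and NEDD4L had 183 and 86.8, a log2 ratio of 1.08.

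**Figure D4:**
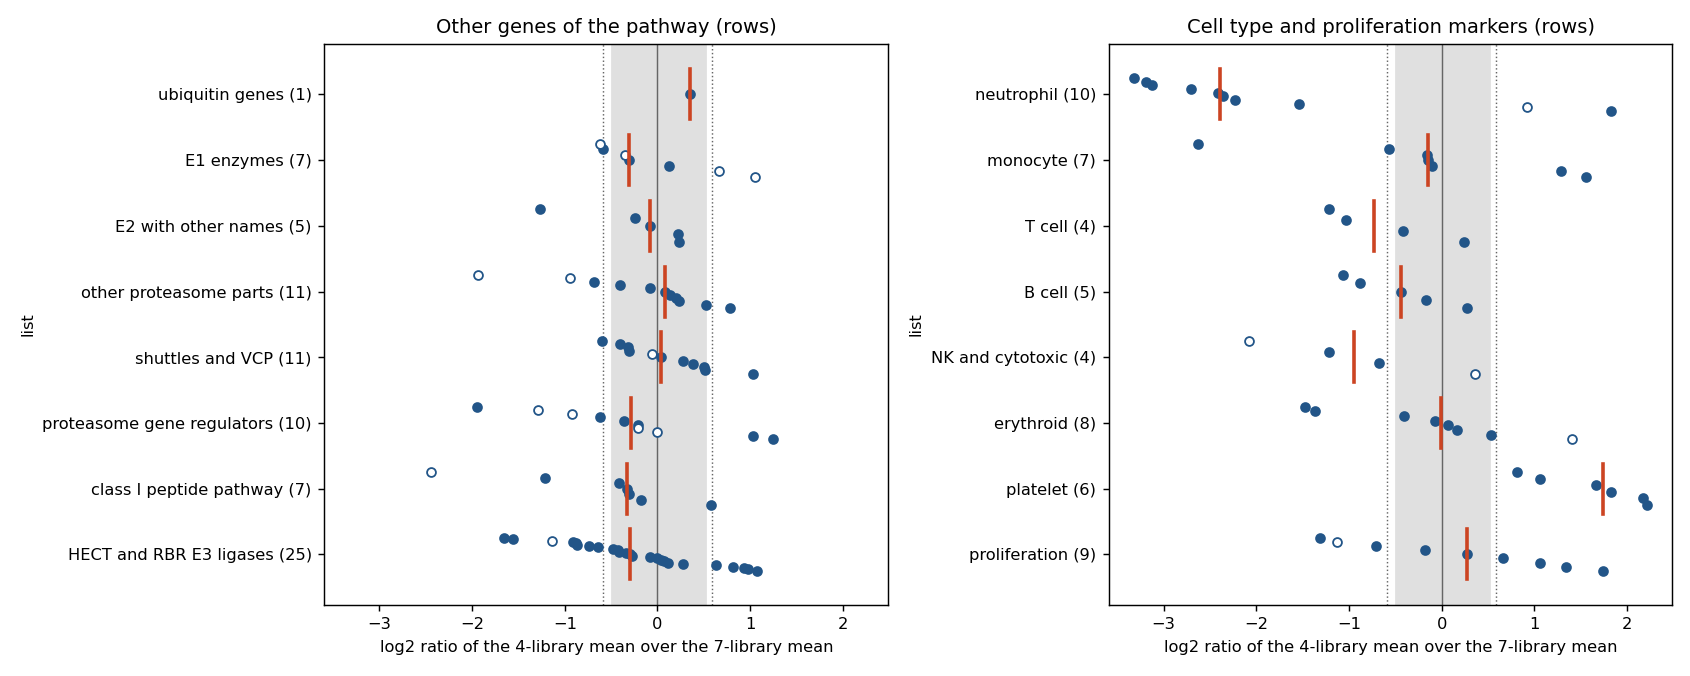
Log2 of the 4-library mean divided by the 7-library mean (x axis) for rows of the other pathway lists (left) and of the cell type and proliferation marker lists (right), with the list and its number of rows on the y axis. Points, red median bars, the grey quartile band of all rows with a mean of at least 10 and the dotted 1.5-fold lines are as in the plot of member groups. Neutrophil markers lie mostly to the left and all 6 platelet markers to the right, while the pathway lists lie on both sides of 0.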

How the data were processed

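The authors trimmed reads with Cutadapt, mapped them to TriManLat1.0 with Bowtie2, removed duplicates, counted uniquely mapped reads for each gene and ran DESeq through DEB. The strand setting, the counting program and the annotation release were not given in the sources used here. Used from the authors' deposited table were mean normalized counts, a signal in which each library is scaled by its size factor, for each group and overall. The authors also give a fold change (a ratio, the second group mean over the first), its log2, a p-value and an adjusted p-value, which were not used. Per-sample columns left unused numbered 0.

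Symbols came from the RefSeq table of TriManLat1.0, matched by transcript record without version for 10080 rows (65.9%). The overall mean equalled the group means weighted by 4 and 7 to within 3.3e-09. A group mean adds up the reads of its libraries, with 1 weight per library. The weights were taken from the smallest means, then refined by least squares. Reads were then searched for 4-library means up to 120 and 7-library means up to 10, and kept where 1 combination fitted the digits given, in 10329 of 10565 and 4726 of 5439 rows. No combination fitted 4 of the 10565 means of the 4 libraries. The search was tested on simulated data, where every single combination was the true one (100%). The simulated means were built with the same weights, so this tests the search and not the weights. In simulation a single combination was found for 100% of 4-library means of 10 to 100 and 21% of those of 100 to 120, and for 99.6% of 7-library means under 6 and 33.9% of those of 6 to 10. Libraries could not be linked to animals.

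Ratios were described without a test, since group means allow none, and counted past a fold of 1.5. Rows with all 11 libraries were compared with an exact two-sided permutation test of normalized means, with Benjamini-Hochberg adjustment over all such rows. P-values measure the spread between these samples only. Genes named are PSMB5 to PSMB10, PSME1 to PSME4 and PSMF1, the highest and lowest row of each other group or list with a mean of at least 10, member rows past a fold of 2 at that level and member rows with reads in all 11 libraries. Single libraries are also given for other members with recovered reads. Members and lists were chosen with earlier results of these data known. Computations used Python 3.11.15, NumPy 2.4.6 and pandas 2.3.3. Alternatives changed the fold, the limit on weak rows, the scaling, the summing of records and single libraries.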

Additional observations from a re-analysis of the deposited data

Results flagged for a closer look

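Of the 36 sets of 4 or 7 recovered member values, 4 held a library far from the others by a gap rule with 95% critical values, under which chance is taken to give about 1 in 20. PSMD8 (XM_004388137.1), a lid subunit, had 83.8 normalized counts in the library of size factor 0.62, and 48.4 to 52.6 in the other 3. PSMA3 (XM_004370899.1) had 21.5 in the library of size factor 0.372 and 74.0 to 82.7 in the others. PSMD1 (XM_004389504.1) had 1.28 and UBE2V1 (XM_004370251.1) had 1.92 in the library of size factor 1.56, from 2 and 3 reads, and 0 in the other 3 libraries, so that for these rows any read in a single library would meet the rule.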

How the results depend on the processing

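No paired analysis was possible because replicates have no columns of their own in the table. At a fold of 2 in place of 1.5, member rows higher in the 4-library mean numbered 1 in place of 6 and lower rows 10 in place of 17, and other pathway rows 5 in place of 11 and 9 in place of 21. Lower member rows numbered 11 with a mean of at least 10 and 8 with a mean of at least 50, and lower pathway rows 10 with a mean of at least 50. The median of the cell cycle and DNA repair E2 enzymes was -0.91 over all rows and -0.29 with either limit. The other counts stayed within 1.5 times, the other medians and the ratios of paired subunits moved by less than that fold, and no direction past the fold turned. Dividing group means by their sums shifted log2 ratios by 0.14 and gave 5 higher and 21 lower member rows, and it turned the medians of 5 groups near 0 (constitutive beta ring, ATPases, non-ATPases, core assembly, K48 and endoplasmic reticulum E2) and of 2 pathway lists (other proteasome parts, shuttles and VCP) from above to below 0. With the search for reads held to 4-library means of up to 80, an alternative added after the data had been seen, 1 in place of 2 members had all 4 libraries above the 7-library mean. Leaving out each of the 11 libraries, 0 members passed an adjusted p of 0.05 in the exact permutation test. With fewer libraries the smallest possible p is higher than 0.00606, so the adjustment was harder still to pass. PSMD1 reached an unadjusted p of 0.0476 without either 7-library library with 0 reads (sizes 1.73 and 1.17; adjusted p 0.396 and 0.386), and its p ran from 0.0476 to 0.167. Protein identities and promoter motifs were planned and not run, since no sequences were used here.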

Other observations

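Records of 1 gene can differ in direction. NFE2L2, a regulator of proteasome genes named after its values were seen, had means of 67.1 over the 4 libraries and 32.8 over the 7 in 1 record, a log2 ratio of 1.03, and of 54.0 and 82.7 in another, a log2 ratio of -0.61. How reads were split between these records is not known.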
